A study of Homo sapiens with 5 samples.

Results

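The genes described here encode inhibin and activin subunits (INHA, INHBA and INHBB), anti-Müllerian hormone (AMH), its receptor (AMHR2) and insulin-like peptide 3 (INSL3). These 6 genes, of 20163 protein-coding genes in the GENCODE annotation of hg19, were picked by name as gonadal and adrenal targets of Steroidogenic Factor-1 (SF-1, NR5A1), by a rule that uses no measured value, although earlier results of these data were known when they were picked. Every SF-1 peak whose centre lay within 100 kb of a gene body was taken as near that gene, which gave 43 of the 30372 peaks in the 4 deposited lists. The largest number, 19 peaks, lay around AMH. AMHR2 and INSL3 had 9 peaks each and INHBB had 6. INHA and INHBA had no peak in any list.

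Binding of SF-1 to chromatin had been mapped by chromatin immunoprecipitation and sequencing in H295R/TR SF-1 cells. They are 1 subclone of H295R, an established human adrenocortical tumor cell line, in which doxycycline switches on additional SF-1. Cells without doxycycline provided the basal dosage, and cells kept for 3 days in doxycycline provided the increased dosage, called overexpressed here. All 4 groups came from this subclone. By their labels they differed in doxycycline and in the anti-SF-1 antibody, which came from Millipore or from Perseus. Each list was called on 3 pooled libraries against input DNA, so a group is represented by 1 list and no replicate error or test of dosage was possible. The basal Millipore list held 4393 peaks, the overexpressed Millipore list 11910, the basal Perseus list 6616 and the overexpressed Perseus list 7453. The peaks carry a rank within their own list, 1 being the best, and no read count or height, so the depth behind a peak is unknown.

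Inhibin is a dimer of the alpha subunit, encoded by INHA, with a beta subunit encoded by INHBA or INHBB, and it lowers the release of follicle-stimulating hormone from the pituitary. Dimers of beta subunits alone are activins, which act through activin receptors and SMAD proteins. AMH, a hormone of Sertoli and granulosa cells that makes the Müllerian ducts regress, signals through AMHR2, and INSL3, a peptide of Leydig cells, drives the descent of the testis through the receptor RXFP2. SF-1 binds DNA as a monomer at short sites and is best known for switching on genes of the adrenal cortex and the gonads, among them AMH and INHA.

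The SF-1 consensus searched here has 9 letters, a C or T followed by CAAGG, then a C or T, a C, and an A or G, and thus 8 exact forms, of which CCAAGGTCA is one. Both strands were read. Within 100 kb of the 6 gene bodies the hg19 reference held 142 exact copies, and 8 of them lay inside a peak. The sequences that follow carry this contrast. All are the plus strand of hg19, 5′ to 3′, with exact copies of the consensus in capitals. A copy on the minus strand therefore shows as its reverse complement. The opening pair are copies close to the start of a member gene that no peak covered, chr19:2249220-2249248 before AMH and chr12:53817361-53817389 before AMHR2.
AMH start side: gcactgtcccCCAAGGTCGcggcagagga
AMHR2 start side: gcatcttcttCCAAGGTCAgggaagggca

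The next run, chr12:53819279-53819307, lay in exon 5 of AMHR2 and was covered by peaks of 2 lists, the only copy inside a member gene that was.
AMHR2 exon: agtgccagagCCAAGGCCAgactcaggca

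Around AMH, the copies in peaks lay downstream of the gene. They are shown with the whole basal Perseus peak at chr19:2269801-2269949 in an intron of OAZ1, the whole basal Perseus peak at chr19:2329051-2329199 and the whole overexpressed Millipore peak at chr19:2329201-2329399. The last pair of peaks were neighbours in an intron of SPPL2B.
OAZ1 intron: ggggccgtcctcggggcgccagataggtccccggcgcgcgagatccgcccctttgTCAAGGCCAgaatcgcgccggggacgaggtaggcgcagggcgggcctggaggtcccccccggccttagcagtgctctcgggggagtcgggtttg
SPPL2B intron, Perseus: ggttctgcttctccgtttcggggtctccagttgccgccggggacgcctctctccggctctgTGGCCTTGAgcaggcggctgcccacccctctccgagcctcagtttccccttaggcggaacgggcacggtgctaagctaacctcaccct
SPPL2B intron, Millipore: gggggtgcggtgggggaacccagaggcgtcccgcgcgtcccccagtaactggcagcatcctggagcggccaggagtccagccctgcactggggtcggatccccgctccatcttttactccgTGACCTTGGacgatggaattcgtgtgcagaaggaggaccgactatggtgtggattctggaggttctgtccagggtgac

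The remaining runs are whole peaks with a copy near INSL3 and INHBB. The whole overexpressed Millipore peak at chr19:17927101-17927199 lay just past the 3′ end of INSL3, and the overexpressed Millipore peak at chr2:121204001-121204149 was intergenic, downstream of INHBB.
INSL3 end: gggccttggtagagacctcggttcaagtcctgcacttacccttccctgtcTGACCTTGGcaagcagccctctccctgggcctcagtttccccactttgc
INHBB downstream: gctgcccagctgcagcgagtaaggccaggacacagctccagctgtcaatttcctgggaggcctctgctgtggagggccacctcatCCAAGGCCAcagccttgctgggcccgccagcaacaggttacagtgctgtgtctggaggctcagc

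The peaks near the 6 genes were spread unevenly over the lists. The basal Millipore list contributed 2, the overexpressed Millipore list 21, the basal Perseus list 9 and the overexpressed Perseus list 11. Per 1000 peaks of a list these were 0.455 (Wilson 95% interval 0.125 to 1.66), 1.76 (1.15 to 2.69), 1.36 (0.716 to 2.58) and 1.48 (0.824 to 2.64), and the intervals, which cover counting error only, overlapped. A peak was found near 2, 4, 3 and 4 of the 6 genes in the same order. Over all protein-coding genes the shares with such a peak were 36.5%, 67.9%, 52.6% and 56.7%, so the number of member genes with a peak was close to this background in each list.

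**Figure D1:**
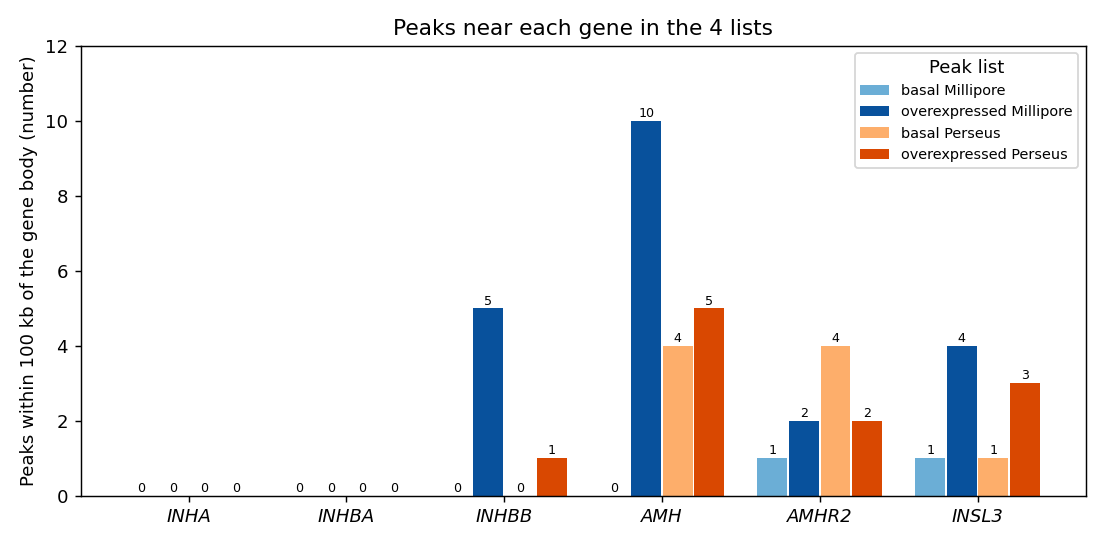
Number of peaks with a centre within 100 kb of each gene body (vertical axis) for the 6 genes (horizontal axis), with 1 bar for each of the 4 peak lists. AMH had 0, 10, 4 and 5 peaks in the order of the legend, and INHA and INHBA had 0 in all lists.

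Between basal and overexpressed SF-1, the Millipore counts went from 2 to 21 and the Perseus counts from 9 to 11. The Millipore list as a whole grew 2.71 times and its count near these genes 10.5 times, whereas for Perseus the ratios were 1.13 and 1.22. The Millipore ratio near these genes rests on a basal count of 2. Over all protein-coding genes, the mean number of peaks within 100 kb went from 0.539 to 2.07 for Millipore. For Perseus this mean went from 1.13 to 1.33. The size of the Millipore difference depended on the peaks taken. In the better-ranked 50% of each list the counts were 1 and 8 for Millipore and 4 and 4 for Perseus. When only the 4393 best-ranked peaks of every list were kept, the counts were 2 and 4 for Millipore and 7 and 6 for Perseus. Without AMH the counts over the whole lists were 2, 11, 5 and 6.

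INHA, the alpha subunit shared by all inhibins (chr2:220433884-220440433, plus strand), lay far from every peak. The nearest centre was 431 kb from the gene body for basal Millipore, 542 kb for overexpressed Millipore, 2186 kb for basal Perseus and 787 kb for overexpressed Perseus. Over all lists, 3.54% of protein-coding genes were as far from a peak, and the median gene was 6.31 kb away. The stretch around INHA without any peak centre was 980 kb long and was bounded by a peak of rank 1895 in the overexpressed Millipore list at chr2:219891651-219891849 and by a peak of rank 282 in the basal Millipore list at chr2:220871151-220871349.

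This stretch was neither empty of genes nor of the consensus. It contained 31 protein-coding genes, INHA included, and 114 exact copies of the SF-1 consensus, 33 of them within 100 kb of INHA. Its GC content was 47.9% and the reference had 0 unknown bases in it. Of the 30348 intervals between neighbouring peak centres, 0.771% were as long, and 7.15% of protein-coding genes lay in such an interval.

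INHBA, the beta A subunit of inhibin A and activin A (chr7:41706766-41745432, minus strand), was likewise without a peak. Its nearest centres were 159 kb away for basal Millipore, 207 kb for overexpressed Millipore and 173 kb in both Perseus lists. Over all lists 10.6% of genes were as far from a peak, and genes without any peak within 100 kb made up 15.7% of protein-coding genes. The gene body of INHBA, the longest of the 6 genes at 38667 bp, held 6 exact copies of the consensus, the most of them. Its 371 kb stretch without peaks held 23. The window of INHBA had 6.28 copies per 100 kb, the fewest of the 6, against 6.81 over the 24 chromosomes.

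**Figure D2:**
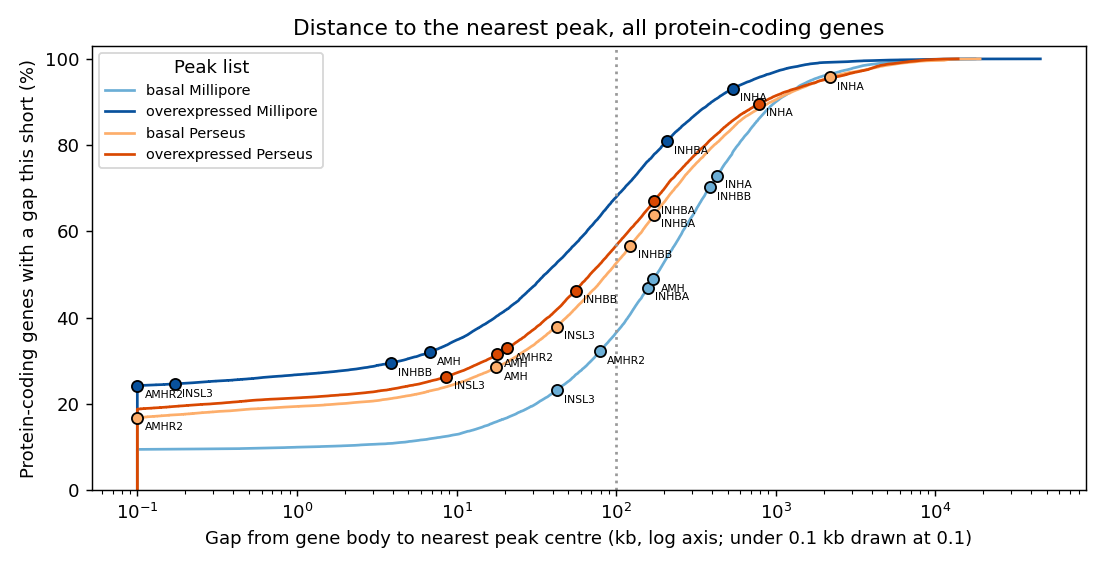
Cumulative share of the 20163 protein-coding genes (vertical axis, percent) by the gap from the gene body to the nearest peak centre (horizontal axis, kb on a log scale), 1 line for each peak list, with the 6 genes as points. INHA sat at 431 to 2186 kb and INHBA at 159 to 207 kb, both right of the dotted line at 100 kb.

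INHBB, the beta B subunit of inhibin B and activin B (chr2:121103712-121109379, plus strand), had peaks only in cells with overexpressed SF-1, 5 in the Millipore list and 1 in the Perseus list. Its nearest basal peaks were 387 kb away for Millipore and 123 kb for Perseus. At least 5 overexpressed Millipore peaks were present near 12.8% of genes, and 4.55% of genes had that many with no basal Millipore peak. None of the 6 peaks was found in a second list. Over the whole lists, 16.6% of overexpressed Millipore peaks and 37.9% of overexpressed Perseus peaks overlapped another list.

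The best rank near INHBB, 314 of 11910, belonged to the overexpressed Millipore peak at chr2:121004151-121004399, 99437 bp from the gene body and at the edge of the window. It lay in an intron of RALB, a gene for a small GTPase, and had no exact consensus. The peak of rank 3907 (chr2:121204001-121204149) was 94696 bp downstream of the gene and carried CCAAGGCCA. The peak nearest to the gene, of rank 9348 (chr2:121113201-121113299), was intergenic, 3871 bp past its 3′ end, without the consensus. In the Perseus list the single peak had rank 6018 and lay 55662 bp from the gene, again in an intron of RALB.

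AMH (chr19:2249308-2252072, plus strand), the hormone gene with the most peaks, had 0 peaks with Millipore at basal dosage and 10 after overexpression, and 4 and 5 with Perseus. In the last 3 of these lists, 2.46%, 7.96% and 5.73% of genes had as many peaks or more. Genes with at least 10 overexpressed Millipore peaks and no basal one were 0.59% of all genes. The AMH window was also the richest of the 6 in other genes, with 11 protein-coding genes besides AMH, and in GC, with 58.7%. Around INHA, without a peak, these values were 10 and 53.7%, and around INHBA, also without a peak, 0 and 39.5%. Around INHBB, AMHR2 and INSL3 they were 1, 10 and 6 other genes and 50.5%, 48.5% and 52.9% GC. The part of gene density and base composition in the peak counts was not tested.

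For none of these peaks was AMH the gene with the nearest start. The peak closest to AMH, of rank 8423 in the overexpressed Millipore list (chr19:2242401-2242649), lay 6783 bp upstream in an intron of SF3A2, a splicing factor gene, and had no exact consensus. Among the 10 overexpressed Millipore peaks the best rank was 4018, and 1 peak of the 10 was among the 4393 best-ranked. As a share of the list length, the best AMH peaks stood at 33.7% in the overexpressed Millipore list (rank 4018), at 39.9% in the basal Perseus list (rank 2637) and at 20.7% in the overexpressed Perseus list (rank 1540).

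Those best Perseus peaks overlapped each other. They lay 17803 and 17978 bp downstream of AMH in an intron of OAZ1 (antizyme 1), next to the start of JSRP1, and contained TCAAGGCCA. The wider overexpressed peak, chr19:2269751-2270349, also held a second copy, CCAAGGCCG. No Millipore peak overlapped this site.

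The site found in the most lists was further downstream, at chr19:2328951-2329399 in an intron of SPPL2B, a gene for an intramembrane protease. It combined overexpressed Millipore peaks of rank 4440 and 5874, a basal Perseus peak of rank 4539 and an overexpressed Perseus peak of rank 2503. No base was common to all these peaks, as the Millipore peak of rank 4440 overlapped only the overexpressed Perseus peak. The peak centres lay 436 to 686 bp past the start of SPPL2B. The joined site carried 2 copies of the consensus, TCAAGGCCA under both Perseus peaks and CCAAGGTCA under the Millipore peak of rank 4440. A second site, still closer to the start of SPPL2B (chr19:2328601-2328799), was found in both Perseus lists, at rank 3609 and 4066, without the consensus. Peaks were thus 76603 to 77228 bp from AMH at these sites.

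The AMH promoter itself had the consensus but no peak. The copy CCAAGGTCG lay at position −74 from the outermost annotated start, and a second, TCAAGGCCA, in the gene body. Neither was covered in any list. Of 35116 RefSeq promoters (GRCh38.p14, 250 bases before to 50 after the start), 2.55% contained an exact copy. For the 5 member genes with an entry, all but INSL3, AMH was the only one that did. The AMHR2 copy at position −264 from its annotated start lay just beyond the 250 bases searched. A copy in a sequence does not show that it was bound, and the absence of a listed peak does not show that it was not.

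**Figure D3:**
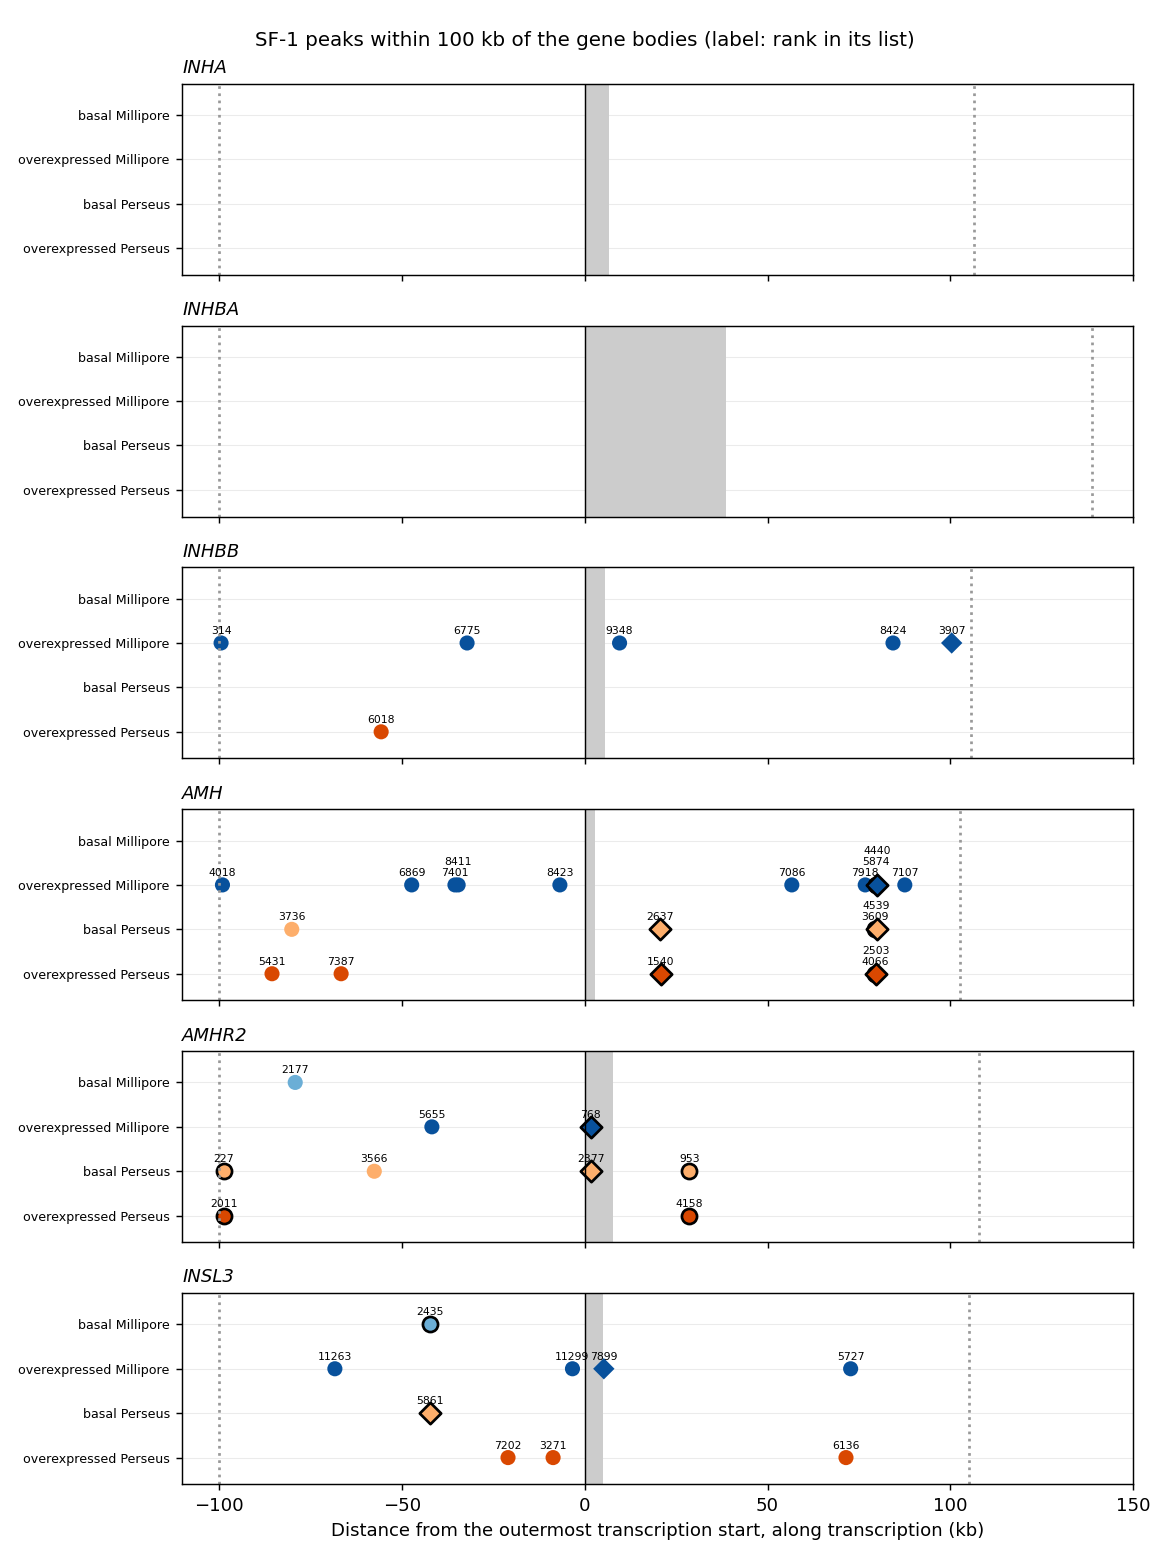
Peaks around the 6 genes by distance of the peak centre from the outermost transcription start (horizontal axis, kb, negative upstream), with 1 row for each list and the gene body in grey between dotted lines at 100 kb from it. Numbers are ranks, diamonds hold an exact SF-1 consensus and black outlines mark peaks that overlap another list, as at 1686 bp in AMHR2.

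AMHR2, the type II receptor of AMH (chr12:53817639-53825456, plus strand), was the only member gene with a peak inside its body, as 38.9% of protein-coding genes had. The overexpressed Millipore peak there had rank 768 of 11910 (chr12:53819151-53819499) and the basal Perseus peak had rank 2377 of 6616 (chr12:53819201-53819299). Both covered the copy CCAAGGCCA in exon 5 of a GENCODE transcript with 11 exons, and their centres lay in coding sequence. The Millipore peak spanned this exon and reached exon 6, whereas the Perseus peak ended within exon 5. The basal Millipore and the overexpressed Perseus lists had no peak there.

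Other AMHR2 peaks stood at the starts of neighbouring genes. A site at chr12:53718651-53719149, 98739 bp from AMHR2 and at the edge of the window, was found in both Perseus lists with rank 227 at basal dosage and rank 2011 after overexpression. It lay close to the start of AAAS, a nuclear pore gene. Another at chr12:53846201-53846399 in an intron of PCBP2, a gene for an RNA-binding protein, had rank 953 and rank 4158 in the same lists. Both had the better rank at basal dosage, and neither held an exact consensus.

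In numbers, AMHR2 had 1 basal and 2 overexpressed Millipore peaks but 4 basal and 2 overexpressed Perseus peaks. It was the only member gene that gained with one antibody and lost with the other, and 13.7% of protein-coding genes did so in that direction. The single basal Millipore peak, of rank 2177 (chr12:53738401-53738549), was 79164 bp away in an intron of SP7. The copy CCAAGGTCA at position −264, upstream of the AMHR2 start, was not in a peak.

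INSL3, the hormone gene of Leydig cells (chr19:17927321-17932383, minus strand), had 1, 4, 1 and 3 peaks in the basal Millipore, overexpressed Millipore, basal Perseus and overexpressed Perseus lists. The nearest peak, of rank 7899 in the overexpressed Millipore list, was centred 171 bp past the 3′ end of the gene and contained CCAAGGTCA. A peak of rank 11299 in the same list (chr19:17935651-17935799) lay 3342 bp upstream of INSL3 and a peak of rank 3271 in the overexpressed Perseus list (chr19:17940951-17941099) 8642 bp upstream, both in exons of JAK3, a kinase gene that neighbours INSL3. None of these peaks was found in a second list. Of all overexpressed Millipore peaks 16.6% were, and of all overexpressed Perseus peaks 37.9%. Further overexpressed peaks near INSL3 lay in FCHO1, SLC5A5 and JAK3, with ranks from 5727 to 11263.

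More overexpressed than basal Millipore peaks were present near INHBB, AMH, AMHR2 and INSL3, and 58.5% of protein-coding genes were like that. For Perseus this was so for INHBB, AMH and INSL3, against 31.9% of genes. Within 10 kb of a gene body, a peak was left for 0 member genes with basal Millipore, 4 with overexpressed Millipore, 1 with basal Perseus and 1 with overexpressed Perseus, where 12.9%, 34.8%, 24.7% and 27.2% of protein-coding genes had one. AMHR2 was the gene in the basal Perseus list and INSL3 the gene in the overexpressed Perseus list. A member gene had the nearest protein-coding start for 7 of the 43 peaks.

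**Figure D4:**
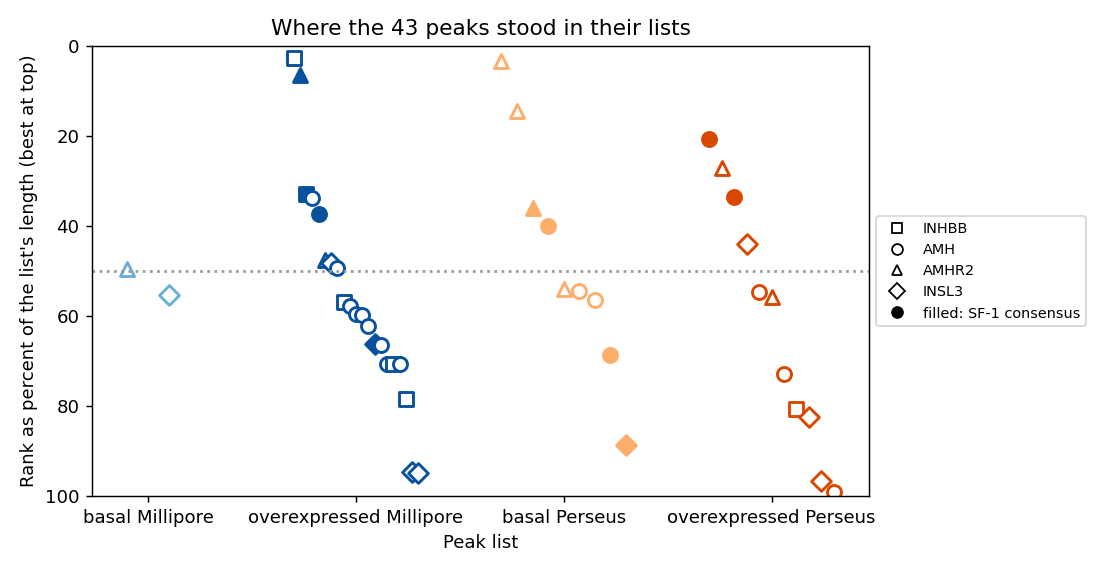
Rank of each of the 43 peaks as a percent of the length of its list (vertical axis, best at the top) by peak list (horizontal axis), with a symbol for each gene and filled symbols for peaks with an exact SF-1 consensus. 17 peaks lay above the dotted line at 50% and 26 below it.

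By construction, 50% of the peaks of any list are in its better-ranked 50% and 10% in its best 10%. Of the 43 peaks, 17 were in the better-ranked 50% of their list and 26 in the other, a difference that was not tested. The overexpressed Millipore list held 13 of the 26. In the best 10% there were 3 of the 43 peaks. These 3 were the RALB intron peak near INHBB, the AMHR2 exon peak and the basal Perseus peak before AAAS. The median rank stood at 52.5%, 59.5%, 53.9% and 55.8% of the list length in the basal Millipore, overexpressed Millipore, basal Perseus and overexpressed Perseus lists.

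Overlapping peaks by at least 1 bp joined the 43 peaks into 34 sites. Of these, 27 were seen in 1 list, 6 in 2 lists, 1 in 3 lists and 0 in 4 lists. A peak of another list overlapped 16 of the 43 peaks, or 37.2% (24.4 to 52.1), against 27% of all peaks. These 16 peaks came from the 7 shared sites and are not independent, which the interval ignores. The Perseus lists shared most with each other: 5 of the 9 basal peaks were found again after overexpression, where 29.5% of the whole basal list was. For Millipore it was 0 of 2, where the whole basal list reached 12.4%. Between antibodies after overexpression, 2 of 21 Millipore peaks overlapped a Perseus peak, and 11.5% of the whole list did.

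An exact SF-1 consensus was present in 0 of 2 basal Millipore peaks, 4 of 21 overexpressed Millipore peaks, 4 of 9 basal Perseus peaks and 2 of 11 overexpressed Perseus peaks. The sum, 10 of 43 or 23.3% (13.2 to 37.7), compares with 15.5% of all peaks and with 1.46% of windows of the same widths placed 5 kb to either side of all peaks. Peaks of different lists at the AMHR2 exon, the OAZ1 intron and the SPPL2B intron were counted separately here. They are not independent, which the interval ignores. Allowing 1 mismatch gave 22 of 43 peaks, or 51.2%, against 42.8% of all peaks and 21.8% of windows. Seen from the sequence, 8 of the 142 copies around the 6 genes, or 5.63% (2.88 to 10.7), lay in a peak, where 1.98% of the 194754 copies on the 24 chromosomes did. Of the 8 copies, 4 were around AMH, 2 around INSL3, 1 around AMHR2 and 1 around INHBB. The copies around AMH lay in pairs at the OAZ1 and SPPL2B sites, so they are not independent, which the interval ignores. The chromosome-wide share also includes copies far from any gene.

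The consensus of the repressor NRSF/REST, whose co-occurrence with SF-1 was a question of the study, was searched with at most 2 mismatches in its 14 fixed letters. It matched 9 of 43 peaks, or 20.9% (11.4 to 35.2), against 7.16% of all peaks and 4.19% of windows. Among the 9, peaks of different lists at the AMHR2 exon, the PCBP2 intron and the SPPL2B intron were counted separately. Those peaks are not independent, which the interval ignores. With at most 1 mismatch, 4 peaks were left, or 9.3% (3.68 to 21.6), against 1.13% of all peaks. They came from only 2 places, the AMHR2 exon and the SPPL2B intron near AMH. At both, the NRSF/REST match shared bases with the SF-1 copy, so the matches are not independent of each other. By its own motif search, the paper reports that SF-1 sites with one of these consensus sequences seldom held the other.

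The other genes of these hormone pathways were described in 4 groups with 27 genes in all. A peak within 100 kb was present for 9, 19, 16 and 13 of them in the basal Millipore, overexpressed Millipore, basal Perseus and overexpressed Perseus lists, or 33.3%, 70.4%, 59.3% and 48.1%. These shares can be read against the 36.5%, 67.9%, 52.6% and 56.7% of all protein-coding genes. Any list gave a peak for 21 genes (77.8%), against 84.3% of all protein-coding genes, and 16 (59.3%) had one within 10 kb, against 53.8%.

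The further ligands and binding proteins (INHBC, INHBE, FST, FSTL3 and TGFBR3) had peaks in 4, 5, 5 and 5 of 5 genes, unlike INHA and INHBA. Over all protein-coding genes the shares were 36.5%, 67.9%, 52.6% and 56.7%. INHBC (chr12:57828567-57845845) and INHBE (chr12:57846106-57853063) are neighbours that share most of their windows, so they are not separate regions. The body of TGFBR3 is 226 kb long, which widens its window. INHBE, a liver activin subunit, had a site in 3 lists with rank 253 in the overexpressed Millipore list (chr12:57855701-57856049), rank 699 in the basal Perseus list and rank 1829 in the overexpressed Perseus list, all with the consensus. TGFBR3 (betaglycan), the co-receptor of inhibin, had 2 sites shared by the Perseus lists, of which the site at chr1:92351101-92351349 had rank 3543 at basal dosage, rank 994 after overexpression and the consensus in both.

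Of the 8 activin receptor and SMAD genes, all had a peak in at least 1 list, as 84.3% of protein-coding genes had, with 2, 6, 6 and 4 in the separate lists. The bodies of 3 of these genes are over 100 kb long, which widens their windows. SMAD3, which carries the activin signal to the nucleus, had rank 209 in the overexpressed Millipore list at chr15:67372601-67372849, rank 694 in the basal Perseus list and rank 2617 in the overexpressed Perseus list, with the consensus in each. SMAD4, the common partner of these SMADs, had a site near its start in the same 3 lists, at rank 3375, 1848 and 1094, without an exact consensus. The 6 type I receptors and SMADs used by AMH had peaks in 2, 6, 3 and 3 genes, against 36.5%, 67.9%, 52.6% and 56.7% of all protein-coding genes. Here too, 3 of the gene bodies are over 100 kb long. An example is a peak of rank 1228 for BMPR1A in the overexpressed Millipore list, past the 3′ end of the gene and 184272 bp from its start.

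In the relaxin family, fewer genes had a peak. Of its 8 genes, 1, 2, 2 and 1 had a peak, and 6 genes (RXFP1, RXFP2, RLN1, RLN2, INSL4 and INSL6) had none in any list, or 75%, against 15.7% of all protein-coding genes. These are not 6 separate regions, since RLN1, RLN2, INSL4 and INSL6 lie within 216 kb of chromosome 9. RXFP2, the receptor of INSL3, was among the 6 genes without a peak. Only RLN3 had a peak within 10 kb, of rank 3951 in the basal Millipore list.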

How the data were processed

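Peak lists of 4 groups of H295R/TR SF-1 cells were used, each from 3 pooled libraries. According to their methods, the authors mapped reads to hg19 with ELAND v2 (CASAVA 1.6 in the submitters' processing notes) and called peaks with CisGenome v2 SeqPeak against input DNA. The deposited files give position, a rank and a constant score of 1000. The quantity ranked on is not given in the sources used here, and pooling hides the spread between libraries, whose depth is unknown. The doxycycline concentration differs in its unit between labels and methods and is not printed.

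Gene bodies and starts came from GENCODE 44 lifted to hg19. A peak was near a gene if its centre lay within 100 kb of the body, and shared if it overlapped by at least 1 bp. Motifs were read on both strands with pysam 0.24.0, numpy 2.4.6 and pandas 2.3.3 under Python 3.11.15. Wilson 95% intervals (scipy 1.17.1) cover counting error only and, where lists are summed, treat overlapping peaks of different lists as separate. Functions were tested on simulated data. The same measure over 20163 protein-coding genes or all peaks served as background, and no test was run, since each group has 1 list.

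The named peaks were those within 10 kb of a member, the best-ranked and the nearest of each member and list, and those in several lists. For pathway genes, values were given only for peaks within 10 kb. Members and lists were chosen with earlier results of these data known. Alternatives varied the distance, its reference point, the peaks used, the overlap, the consensus and the background genes. The details of 1 site near INSL3 are not reported here, and its peaks stay in the counts.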

Additional observations from a re-analysis of the deposited data

Results flagged for a closer look

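AMHR2 changed in opposite directions with the 2 antibodies. The number of Millipore peaks within 100 kb changed by 1 between basal and overexpressed SF-1, from 1 to 2, and the number of Perseus peaks by -2, from 4 to 2. With 1 pooled list in each group, the difference was not tested. The AMHR2 exon site lay on both sides of it, as an overexpressed Millipore peak and a basal Perseus peak. In lists cut to their 4393 best-ranked peaks, the counts were 1 and 1 for Millipore and 4 and 2 for Perseus, without the Millipore gain.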

How the results depend on the processing

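Counts are given in the order basal Millipore, overexpressed Millipore, basal Perseus and overexpressed Perseus. Peaks near the member genes numbered 2, 21, 9 and 11, but 1, 10, 4 and 4 within 50 kb, 0, 5, 1 and 1 within 10 kb, and 1, 8, 4 and 4 in the better-ranked 50% of each list. With the 4393 best-ranked peaks of every list they numbered 2, 4, 7 and 6, and without AMH, a choice made after seeing the data, 2, 11, 5 and 6. Member genes with a peak numbered 2, 4, 3 and 4, against 1, 4, 3 and 3 within 50 kb, 0, 4, 1 and 1 within 10 kb, and 1, 4, 2 and 3 in the better-ranked 50%. Shared sites fell from 7 to 3 with a reciprocal overlap of 50%, to 4 within 50 kb and to 4 in the better-ranked 50%. Peaks with the SF-1 consensus numbered 10, and 22 with 1 mismatch. NRSF/REST matches fell from 9 to 4 with at most 1 mismatch, also chosen after seeing the data. The share of all genes with a peak was 36.5%, 67.9%, 52.6% and 56.7%, with genes of every biotype 29.7%, 55.5%, 41.4% and 45.1%, and within 10 kb 12.9%, 34.8%, 24.7% and 27.2%. Of 78 alternative values, 43 stayed within 1.5 times the reported count or, for shares, within its interval. Measuring from the outermost start, counting any base of the peak and merging peaks within 500 bp moved no count by more than that. No paired analysis was possible because each group is 1 pooled list without replicate numbers, and no replicate could be left out.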
